A study of Rattus norvegicus with 8 samples.

Results

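The genes described here encode the small leucine-rich proteoglycans decorin (Dcn), lumican (Lum), biglycan (Bgn) and fibromodulin (Fmod). Their RNA was measured in rat soleus, which is made mostly of slow fibres and bears weight in standing, with Affymetrix arrays that report 1 signal per probe set, a group of short probes designed against a transcript. All probe sets whose only annotated gene symbol is one of these were taken, which gave 9 of the 8740 probe sets on the array: 4 for Dcn, 1 for Lum, 2 for Bgn and 2 for Fmod. All 9 were bright enough to be tested. The family was chosen from earlier results of these data. Which values were used is not recorded: the higher Dcn and Lum signals in unloaded than in control soleus were known, and results of the walked muscle may have been used too. Values of unloaded against control are therefore a description, and no support is drawn from their calls.

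Small leucine-rich proteoglycans are secreted proteins whose curved core of leucine-rich repeats binds collagen fibrils and limits how thick the fibrils grow. Decorin and biglycan carry chondroitin or dermatan sulfate chains, while lumican and fibromodulin carry keratan sulfate. In skeletal muscle they lie in the connective tissue around the fibres, where fibroblasts make most of them, and fibromodulin is abundant in tendon. Decorin also binds transforming growth factor beta and myostatin and can hold these growth factors away from their receptors.

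The 8 arrays came from female rats in 3 groups, and no strain, age or genetic change is given in the labels. Walked rats (2 arrays) were kept off their hindlimbs for 12 h and then walked on a treadmill for 2 h in all, in bouts of 30 min alternating with 30 min of cage activity over 4 h. Unloaded rats (3 arrays) had the 12 h without hindlimb standing only, and control rats (3 arrays) had 12 h of spontaneous cage activity. Each array was hybridised with RNA pooled from 8 to 10 rats, so every error and p-value below measures the spread between pools, not between rats, and nothing in the labels says how the pools were handled apart. The walked muscle was taken later than the unloaded muscle by the length of the walking period. Time since unloading, walking and the cage activity between bouts therefore cannot be told apart.

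Median signal per array lay between 37.1 and 42.4. On the first principal component control pool 3 scored 30.0, against 14.2 and 16.3 for the other control pools. Of 11 markers of soleus fibres 8 were measured, among them the slow myosin Myh7, and each had signal above the floor (4.10) on at least 1 array. In whole muscle, fewer cells of a type and less RNA per cell cannot be told apart. The fold changes below are log2 values, the first-named group minus the second, with the standard error (SE) of a limma fit to all 8 arrays. A probe set was called where the Benjamini-Hochberg adjusted p over the 5244 tested probe sets was under 0.05.

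Dcn signal was higher in unloaded than in control muscle on all 4 of its probe sets. In walked muscle 2 of the 4 stayed well above control, and the other 2 were not called different from control. The probe set Z12298cds_s_at, designed on the coding part of its transcript, gave 1416 and 1481 in walked pools, 1967, 1553 and 1688 in unloaded pools, and 245, 244 and 316 in control pools. Both walked pools lay below every unloaded pool and above every control pool. The probe set X59859_i_at gave 2378 and 2096 in walked pools, 3502, 2531 and 2451 in unloaded pools, and 649.9, 761 and 986 in control pools. Its pools kept the same order of groups without overlap.

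The probe set X59859_r_at, which comes from the same transcript entry, gave 209.7 and 212.5 in walked pools, 596, 430.4 and 436.5 in unloaded pools, and 135.5, 191 and 207 in control pools. Here the walked pools sat just above the highest control pool and below the lowest unloaded pool. The probe set rc_AI639233_s_at gave 273.5 and 596 in walked pools, 777, 690 and 885 in unloaded pools, and 499, 275 and 245 in control pools. The walked pools differed from each other by 2.18 times on this probe set, one inside the control range and the other between controls and unloaded pools.

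**Figure D1:**
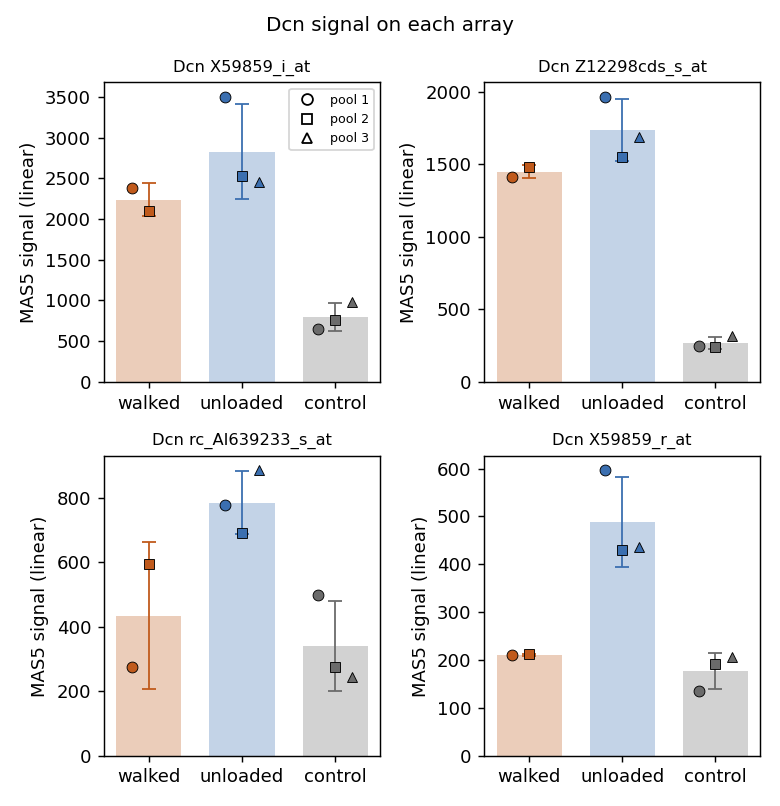
Signal (linear scale) of the 4 Dcn probe sets in walked, unloaded and control soleus, where symbols are pools, bars are group means and error bars are SD (n = 2, 3 and 3 pools). All unloaded pools lie above all control pools on each probe set, and the walked pools stay high on X59859_i_at and Z12298cds_s_at and lie near the controls on X59859_r_at.

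Of the 9 probe sets, 5 were called higher and 0 lower in unloaded against control muscle, the 4 of Dcn and that of Lum. Of all tested probe sets 3.99% were called higher and 3.32% lower, and the pools did not overlap on 10.2% (unloaded higher) and 16.2% (unloaded lower). Since the family may have been chosen on this comparison, nothing is read from the difference. The Dcn log2 fold changes were 2.70 ± 0.14 on Z12298cds_s_at (6.49-fold), 1.83 ± 0.18 on X59859_i_at, 1.46 ± 0.19 on X59859_r_at and 1.27 ± 0.30 on rc_AI639233_s_at. Without control pool 3, whose Dcn signals were the highest of the controls on 3 of the probe sets, that range was 1.08 to 2.82. The call of rc_AI639233_s_at was lost without any of control pools 2 and 3 and unloaded pools 1, 2 and 3 (adjusted p of 0.0662 to 0.0808, limma).

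After walking, X59859_r_at fell against unloaded muscle, by 1.19 ± 0.21 on the log2 scale (adjusted p = 0.00766, limma). It was the only one of the 9 probe sets called in that comparison, in which 1.47% of all tested probe sets were called lower and 2.73% higher. The call was lost when either walked pool was left out (adjusted p = 0.0742 without pool 1, 0.0728 without pool 2), in fits that leave a lone walked array and assume that it varies like the other groups. The comparison shares the unloaded pools with the previous one, so its direction is not independent of how the members were chosen. On rc_AI639233_s_at the log2 fold change was -0.95 ± 0.34 (adjusted p = 0.166, limma, 95% interval -1.69 to -0.20). It was -0.39 or -1.51 when walked pool 1 or 2 was left out. The other 2 Dcn probe sets gave -0.32 ± 0.20 with a 95% interval of -0.76 to 0.12 (X59859_i_at) and -0.25 ± 0.16 with an interval of -0.61 to 0.10 (Z12298cds_s_at), neither called. The mean over the 4 probe sets had a log2 fold change of -0.68 ± 0.16 (adjusted p = 0.0338).

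Against control muscle, Dcn stayed higher in walked muscle on 2 of its 4 probe sets. Z12298cds_s_at rose by 2.45 ± 0.16 (adjusted p = 1.02e-05, limma) and X59859_i_at by 1.51 ± 0.20 (adjusted p = 0.00151), and each kept its call whichever array was left out. These were the 2 probe sets of the 9 called, both higher, in a comparison in which 4.46% of all tested probe sets were called higher and 4.61% lower. X59859_r_at gave 0.27 ± 0.21 (adjusted p = 0.473) and rc_AI639233_s_at 0.33 ± 0.34 (adjusted p = 0.611), and the last was 0.89 or -0.24 when walked pool 1 or 2 was left out. This comparison shares the control pools with the first one.

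**Figure D2:**
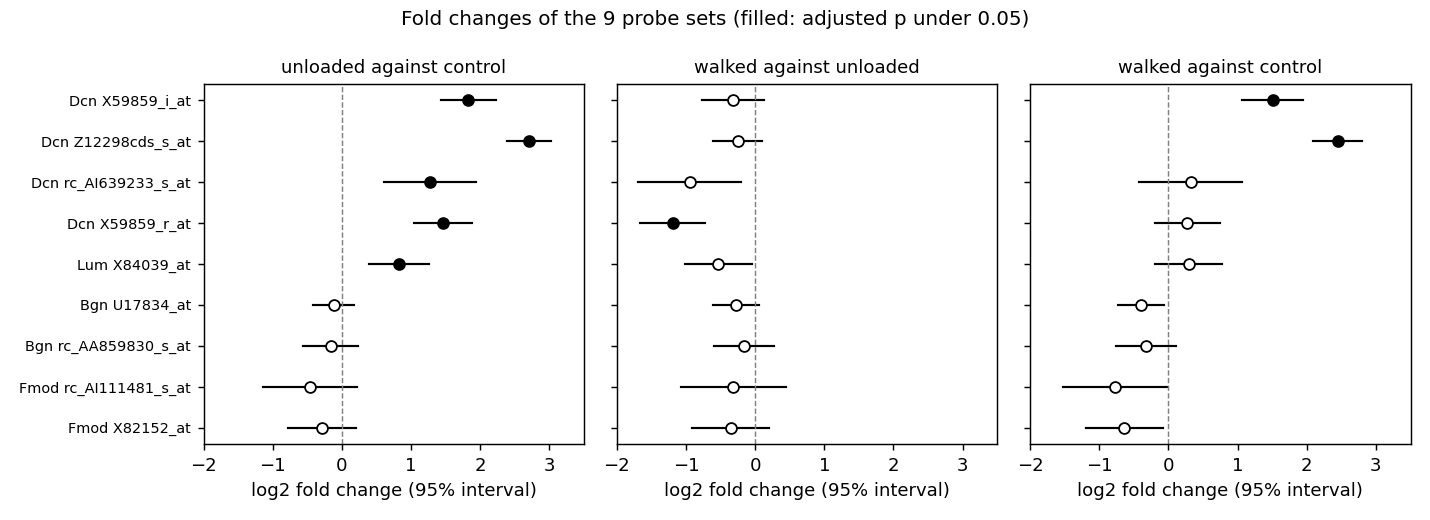
Log2 fold changes (points) with 95% intervals (lines) of the 9 probe sets in the 3 comparisons, filled where the adjusted p was under 0.05. The 4 Dcn probe sets and Lum are right of 0 in unloaded against control, every probe set is left of 0 in walked against unloaded, and Z12298cds_s_at and X59859_i_at are right of 0 and filled in walked against control.

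The difference between Dcn probe sets was also present in ratios taken inside each array, which scaling between arrays does not alter. The signal of X59859_i_at was 9.86 to 11.3 times that of X59859_r_at in walked pools, 5.62 to 5.88 times in unloaded pools and 3.98 to 4.80 times in control pools. The ratio of Z12298cds_s_at to X59859_r_at was 6.75 to 6.97 in walked pools, 3.30 to 3.87 in unloaded pools and 1.28 to 1.81 in control pools. Neither ratio overlapped between any 2 groups, so these probe sets of the same gene changed unequally. The ratio of X59859_i_at to Z12298cds_s_at was 1.42 to 1.68 in walked pools and 1.45 to 1.78 in unloaded pools, which overlap, and 2.65 to 3.12 in control pools. These ratios show unequal change between probe sets and do not say which of them follows the amount of Dcn RNA. Ratios with rc_AI639233_s_at were less separate. Over X59859_r_at it gave 1.30 to 2.80 in walked, 1.30 to 2.03 in unloaded and 1.18 to 3.68 in control pools. That of X59859_i_at over it was 3.52 to 8.70, 2.77 to 4.51 and 1.30 to 4.02, and both overlapped between all groups. That of Z12298cds_s_at over it was 2.49 to 5.18, 1.91 to 2.53 and 0.49 to 1.29, separating only the control pools. In this array's naming, a probe set with the letter r was chosen with some design rules dropped, one with i holds fewer probes than usual and one with s may match related transcripts; what each detects beyond Dcn was not tested.

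**Figure D3:**
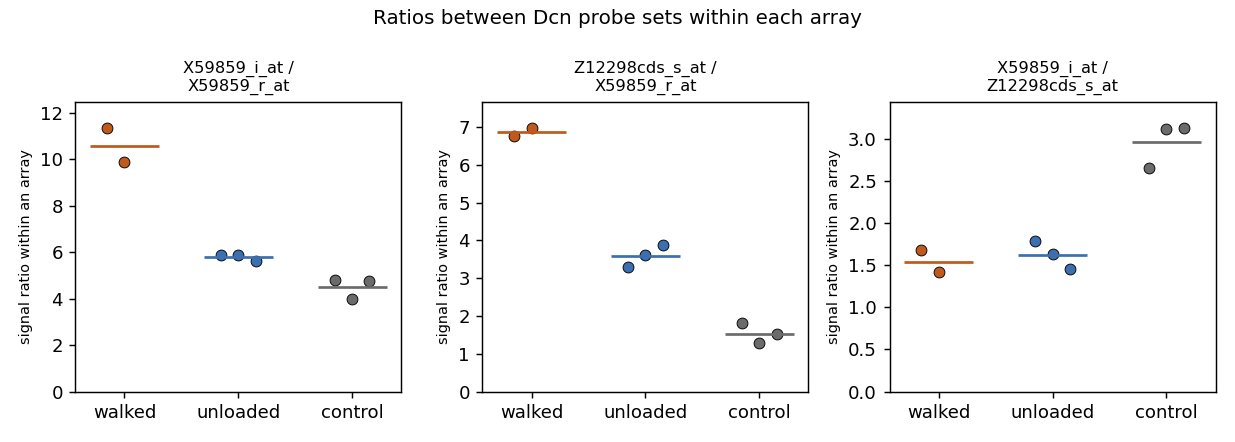
Ratio of signals between pairs of Dcn probe sets within each array (linear axis from 0), where points are pools and lines are geometric means of walked, unloaded and control pools. The ratios over X59859_r_at are highest in walked pools and lowest in control pools without overlap, and the ratio of X59859_i_at to Z12298cds_s_at separates only the control pools.

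Lum, which lies next to Dcn on chromosome 7 in the RefSeq table of rat assembly GRCr8, was measured by 1 probe set, and its signal was highest in unloaded muscle. Its probe set X84039_at gave 132.2 and 132.6 in walked pools, 242, 165 and 176 in unloaded pools, and 105, 133 and 91.1 in control pools. The unloaded pools lay above all others, and the walked pools lay at the level of the highest control pool. The log2 fold change was 0.82 ± 0.20 in unloaded against control (1.77-fold). That call was lost without control pool 1 (adjusted p = 0.0725), control pool 3 (0.0777) or unloaded pool 1 (0.101, limma). In walked against unloaded muscle the log2 fold change was -0.53 ± 0.22 (adjusted p = 0.237, limma, 95% interval -1.01 to -0.05). In walked against control muscle it was 0.29 ± 0.22 (adjusted p = 0.458, 95% interval -0.19 to 0.77). Beyond Lum on the same chromosome lie Kera and Epyc, which encode related proteoglycans and were not analysed here. Btg1, the antiproliferative gene on the other side of Dcn, was measured and not called, with log2 fold changes of 0.05 between unloaded and control, 0.27 between walked and unloaded and 0.32 between walked and control muscle.

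**Figure D4:**
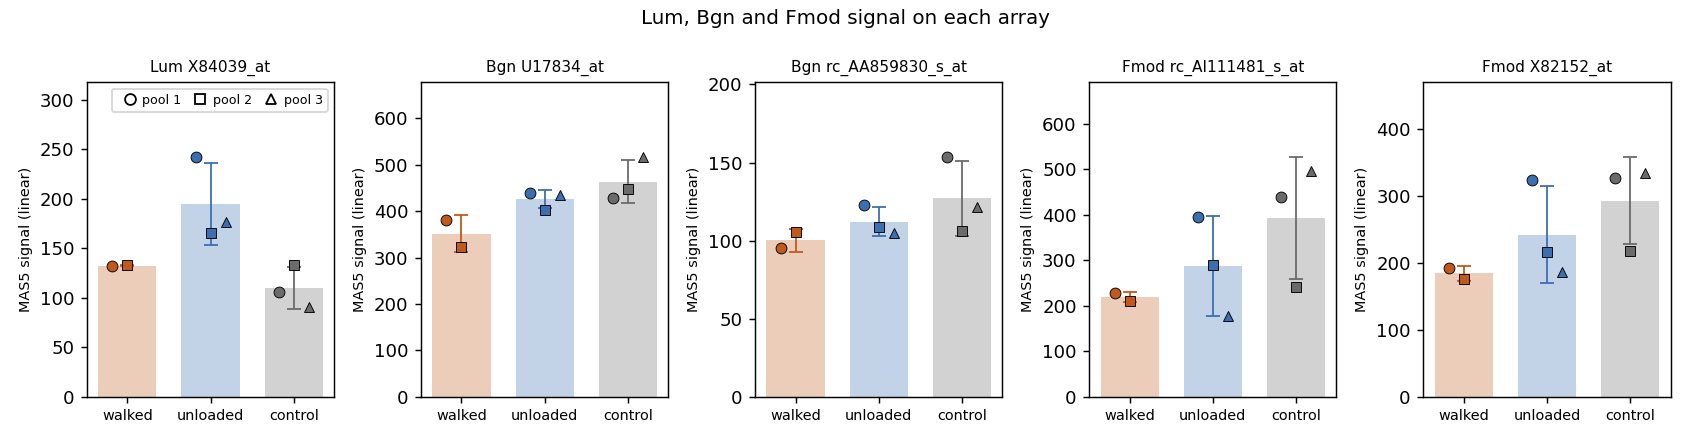
Signal (linear scale) of the Lum, Bgn and Fmod probe sets in walked, unloaded and control soleus, where symbols are pools, bars are group means and error bars are SD (n = 2, 3 and 3 pools). Lum is highest in the unloaded pools, while the walked pools lie below all control pools on the Bgn and Fmod probe sets.

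The bases before the transcript start are shown for Lum, which had higher signal in unloaded than in control muscle, and for Fmod, which was not called. They come from the RefSeq promoter table for GRCr8, which held 2 of the 4 genes. The 250 bases before the transcript start are printed 5′ to 3′ on the plus strand, at chr7:34245456-34245705 for Lum and chr13:48045317-48045566 for Fmod. Capitals mark matches, on either strand, to 4 motifs: the TATA box (TATAAA), the GC box (GGGCGG), the AP-1 site (TGANTCA) and the short Smad site (CAGAC, or GTCTG on the other strand).
Lum: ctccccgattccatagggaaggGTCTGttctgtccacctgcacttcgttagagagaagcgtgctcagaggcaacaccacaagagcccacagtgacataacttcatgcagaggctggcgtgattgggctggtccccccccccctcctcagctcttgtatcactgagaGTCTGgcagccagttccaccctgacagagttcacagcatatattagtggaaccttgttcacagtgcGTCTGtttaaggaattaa
Fmod: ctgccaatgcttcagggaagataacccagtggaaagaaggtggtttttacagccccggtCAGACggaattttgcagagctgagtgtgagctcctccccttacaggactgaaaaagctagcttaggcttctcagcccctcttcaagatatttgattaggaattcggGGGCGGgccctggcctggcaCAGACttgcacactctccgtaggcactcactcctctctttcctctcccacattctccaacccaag
The Lum window held 3 Smad sites and the Fmod window 2, a motif present in 42.9% of all 33469 promoter windows of this length. The Fmod window also held 1 GC box, present in 30.5% of windows. Neither window held the letters of the TATA box or the AP-1 site, which were in 12.9% and 6.34% of windows. No matches overlapped, and a match is a description of the letters only.

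Bgn, the member closest to decorin in structure and encoded on chromosome X, was not called in any comparison. Its probe set U17834_at gave 380.3 and 323 in walked pools, 440.0, 403 and 436 in unloaded pools, and 428, 448 and 516 in control pools. The walked pools were below all others, and the unloaded and control pools overlapped. Between unloaded and control muscle the log2 fold change was -0.12 ± 0.13 (95% interval -0.41 to 0.18). For walked muscle it was -0.28 ± 0.15 relative to unloaded (adjusted p = 0.381, limma, 95% interval -0.61 to 0.05). Relative to control it was -0.40 ± 0.15 (adjusted p = 0.126, 95% interval -0.73 to -0.07). The second probe set, rc_AA859830_s_at, gave 95 and 105 in walked pools, 123, 109 and 105 in unloaded pools, and 153, 106 and 122 in control pools. Its log2 fold change in unloaded against control was -0.16 ± 0.18, with an interval of -0.56 to 0.23, and in the walked comparisons -0.16 ± 0.20 (unloaded, adjusted p = 0.745) and -0.33 ± 0.20 (control, adjusted p = 0.352).

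Fmod, on chromosome 13 beside the related genes Prelp and Optc, was not called either, and its control and unloaded pools were widely scattered. The probe set rc_AI111481_s_at gave 227 and 211 in walked pools, 396, 289.6 and 177 in unloaded pools, and 439, 241 and 497 in control pools. X82152_at gave 193 and 177 in walked pools, 324, 216 and 187 in unloaded pools, and 327, 219 and 335 in control pools. On both probe sets the same unloaded pool (pool 1) was high and the same control pool (pool 2) was low, and the 2 probe sets differed by 0.19 log2 units (root mean square over the 8 arrays, each probe set centred on its mean). The log2 fold changes in walked against control were -0.77 ± 0.34 (adjusted p = 0.193, limma) and -0.64 ± 0.25 (adjusted p = 0.140). Their 95% intervals, not adjusted for the number of probe sets, were -1.53 to -0.01 and -1.20 to -0.09. In unloaded against control the log2 fold changes were -0.46 ± 0.31 and -0.29 ± 0.23, with 95% intervals of -1.13 to 0.22 and -0.79 to 0.21. In walked against unloaded they were -0.31 ± 0.34 (adjusted p = 0.709, limma) and -0.35 ± 0.25 (adjusted p = 0.531).

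All 9 log2 fold changes lay below 0 in walked against unloaded, with a median of -0.32, against a median of -0.05 over all tested probe sets. The walked pools lay below every unloaded pool on 6 of the 9. Of all tested probe sets, 21.8% did so and 13.3% had walked pools above every unloaded pool. These 6 were the Dcn and Lum probe sets and Bgn U17834_at, and the Dcn probe sets measure the same gene. The higher Dcn and Lum signals of the unloaded pools were known when the family was chosen. Nothing about the family is therefore read from this direction. In walked against control the Dcn and Lum probe sets were above 0 and the 4 of Bgn and Fmod below 0, with walked pools below every control pool on all 4 (27.8% of all tested probe sets) and above every control pool on 3 Dcn probe sets (15.3%). At an unadjusted p under 0.05 (limma), 2 of the 9 were higher and 3 lower in walked against control, and 0 and 3 in walked against unloaded. Walked against control shares the control pools with unloaded against control, so its directions are not independent of that choice either. The 2 walked pools differed by under 1.2 times on 8 of the 9 probe sets, Dcn rc_AI639233_s_at being the exception.

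The genes most like each member in pattern were taken by the root mean square difference of log2 signal over the 8 arrays, each centred on its own mean, taking for a member the mean over its probe sets. The genes nearest to Fmod included Col1a1 (0.15), a chain of type I collagen whose fibrils fibromodulin binds, and the matrix glycoprotein Fn1 (0.18). The brightest Col1a1 probe set gave 2226 and 2530 in walked pools, 3993, 3043 and 2232 in unloaded pools, and 3751, 2777 and 3887 in control pools, with the same high unloaded pool and low control pool as Fmod. It was not called in any comparison (log2 fold change -0.19 ± 0.20 in unloaded against control, and for walked muscle -0.53 ± 0.23 relative to control, adjusted p = 0.173), while 2 of the gene's 4 probe sets were called in walked against control, and its other probe sets ranged from -1.33 to -0.58 there. In walked against unloaded muscle 1 of the 4 was called, with the others than the brightest at -0.94 to -0.54. The other 3 genes nearest to Fmod were Vof16 (0.18), Hnrnpm (0.21) and Mark3 (0.22). The genes nearest to the mean of the 4 Dcn probe sets, which themselves lay 0.45 to 0.98 apart by the same measure, were the proteasome subunit Psma2 (0.23), the complement regulator Cd59b (0.24), the ribosomal protein gene Rpl35a (0.26), the translation factor Eif4e (0.27) and the interleukin 6 receptor Il6r (0.27). Those nearest to Lum were B2m (0.15), Zc3h4 (0.16), Washc3 (0.17), Fdft1 (0.18) and Ssrp1 (0.18). Bgn hardly varied (SD of 0.17 log2 units over the arrays), and its nearest genes Rpn2, Ndufa4l2, Rpl36, Oaz2 and Lamb2 were all within 0.07 to 0.08.

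Other genes of the same matrix were read from 8 lists: other small leucine-rich proteoglycans, other proteoglycans, fibrillar collagens with their chaperones and enzymes, basement membrane, transforming growth factor beta signalling, cell surface partners, synthesis of the sugar chains, and matrix proteases with their inhibitors. Together they held 86 tested genes other than the members, each read from its brightest probe set. In unloaded against control, limma called 0 higher and 4 lower (4 and 14 at an unadjusted p under 0.05), with a median of -0.21, against 3.71% higher and 2.50% lower and a median of -0.08 over all 3154 genes. The 4 were the collagen chaperone Serpinh1 (-1.96 ± 0.23), osteopontin Spp1 (-1.15 ± 0.23), the prolyl hydroxylase subunit P4ha1 (-0.99 ± 0.19) and the cross-linking enzyme Loxl1 (-0.82 ± 0.15), with adjusted p of 0.00043 to 0.0131 (limma). Serpinh1, P4ha1 and Loxl1 kept their calls whichever array was left out, and Spp1 lost its call without control pool 1 (adjusted p = 0.0546). The collagen genes Col1a1, Col1a2 (-0.17 ± 0.20) and Col3a1 (-0.03 ± 0.16) were not called. Sdc4 was -0.57 ± 0.17 on its brightest probe set (adjusted p = 0.0657, limma), while its other probe set gave -0.97 and was called.

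In walked against unloaded muscle, 5 of the 86 genes rose and 0 fell by limma (11 and 6 at an unadjusted p under 0.05), with a median of 0.02 against -0.05 over all genes, of which 2.35% rose and 1.74% fell. Sdc4, a transmembrane heparan sulfate proteoglycan, rose by 1.87 ± 0.18 and Serpinh1 by 1.81 ± 0.25, and both kept their calls whichever array was left out. P4ha1 (1.27 ± 0.21, adjusted p = 0.00449, limma), Loxl1 (0.88 ± 0.17, adjusted p = 0.0123) and Ugdh (0.86 ± 0.16, adjusted p = 0.00968) also rose. Ugdh makes the glucuronate that chondroitin and dermatan sulfate chains are built from, and its other probe set gave 0.51 and was not called. Loxl1 gave 0.35 on its other probe set, not called. Without 1 walked pool, P4ha1 (adjusted p = 0.063 without pool 2), Loxl1 (0.0742 and 0.124 without pool 1 and pool 2) and Ugdh (0.0919 and 0.0776) lost their calls. 

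In walked against control muscle, 1 of the 86 genes rose and 7 fell, with a median of -0.14 against -0.11 over all genes, of which 3.74% rose and 4.63% fell. Sdc4 rose by 1.30 ± 0.18 (adjusted p = 0.00218, limma) and kept its call whichever array was left out. The falls were in Papss2, which makes the sulfate donor for the sugar chains (-1.97 ± 0.50), the collagen chain Col1a2 (-1.03 ± 0.22), the receptor Vldlr (-0.98 ± 0.24), the endothelial proteoglycan Esm1 (-0.95 ± 0.25), the procollagen protease enhancer Pcolce (-0.84 ± 0.21), the heparan sulfate proteoglycan Agrn (-0.82 ± 0.20) and the metalloproteinase inhibitor Timp2 (-0.72 ± 0.19). All 7 lost their calls without either walked pool (adjusted p of 0.103 to 0.220), and all but Col1a2 also without at least 1 control pool. The fold of Papss2 is imprecise, since its walked mean was 10.8.

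**Figure D5:**
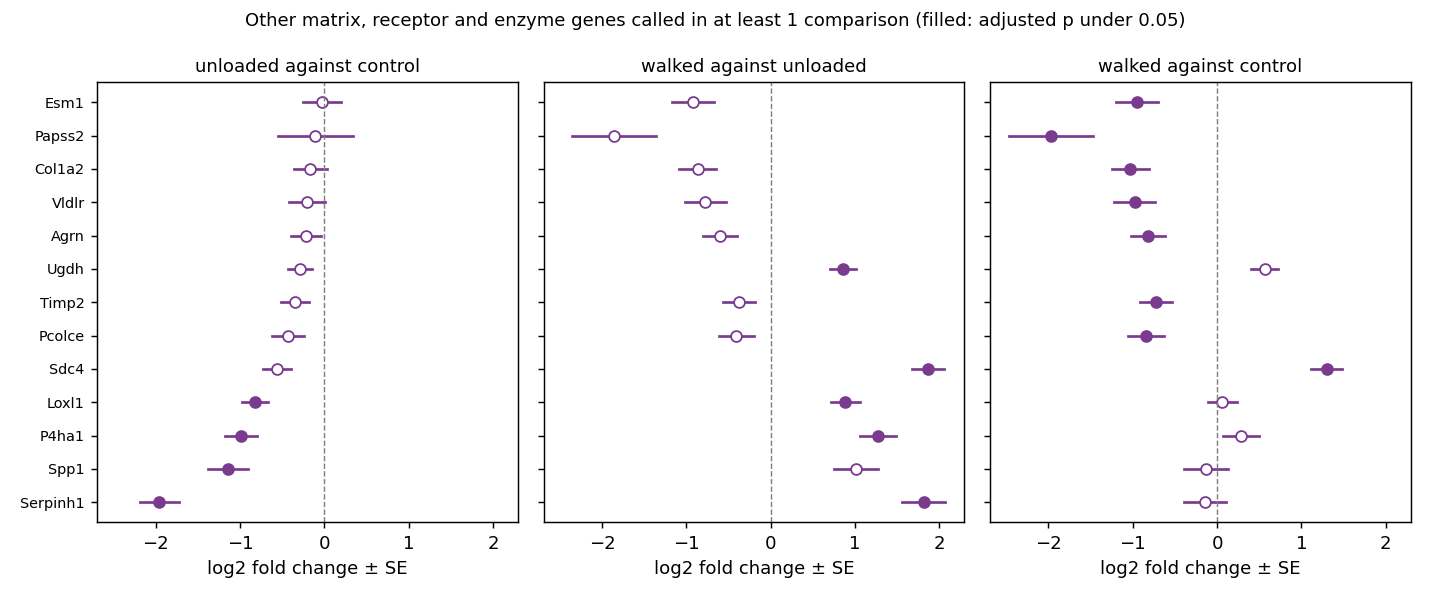
Log2 fold changes with SE of the 13 genes of the 8 matrix lists that were called in at least 1 comparison, filled where called. Serpinh1, Spp1, P4ha1 and Loxl1 are lower in unloaded against control, and Sdc4 is far right of 0 in both comparisons with walked muscle.

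The 3 other small leucine-rich proteoglycans with tested probe sets were not called in any comparison, nor under an unadjusted p of 0.05. Aspn gave 0.98 ± 0.58, Omd 0.65 ± 0.41 and Chad -0.55 ± 0.26 in unloaded against control, with adjusted p of 0.247 to 0.406 (limma). Of 13 genes of transforming growth factor beta signalling limma called 0 in each comparison (2, 1 and 0 at an unadjusted p under 0.05 in unloaded against control, walked against unloaded, then walked against control). Of 4 basement membrane genes it called 0 (0, 0 and 1 unadjusted). Of 12 cell surface partners, Vldlr alone was called.

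Markers of other cell types gave the following summed signals, and their part in the values above was not tested. Of 17 fibroblast markers 9 were measured, with sums of 5461 to 5840 in walked pools, 5807 to 8931 in unloaded pools and 6495 to 9454 in control pools. The unloaded and control sums overlapped. Limma called 0 of the 8 tested in unloaded against control (2 higher and 2 lower at an unadjusted p under 0.05) and 2 lower in walked against control, Col1a2 and Thy1 (-1.11 ± 0.30). On their brightest probe sets Pdgfra (0.23), S100a4 (0.16) and Pdgfrb (0.02) lay above 0 in walked against control, uncalled. Col1a1 (-0.53), Vim (-0.12) and Col3a1 (-0.12) lay below 0, uncalled. The median of the list was -0.12 there, against -0.11 over all genes. Thy1 lost its call without any of the walked or control pools or unloaded pool 2 (adjusted p of 0.0513 to 0.185). Of 8 tendon markers 5 were measured, with sums of 1148 to 1370 in walked, 1086 to 1349 in unloaded and 1216 to 2361 in control pools, and limma called 0 of 4 in any comparison (2 lower in unloaded against control at an unadjusted p under 0.05). Of 8 adipocyte markers 5 were measured, with sums of 3684 to 4196 in walked, 3810 to 4820 in unloaded and 3513 to 3727 in control pools. The unloaded sums lay above all control sums, and of 4 tested only Fabp4 was called, higher in unloaded than in control muscle (1.52 ± 0.20). On their brightest probe sets Lpl (0.46) lay above 0 in that comparison and Lep (-0.28) and Cfd (-0.43) below 0. Of 15 leukocyte markers 13 were measured, with sums of 1280 to 1438 in walked, 1594 to 1826 in unloaded and 1650 to 1671 in control pools. Of 9 tested, the leukocyte gene Cd48 was higher in unloaded than in control muscle (1.40 ± 0.25). The 9 had a median of -0.11 in that comparison, in which RT1-Da (0.28) and Lyz2 (0.10) also lay above 0. Ptprc (-0.83), Cd74 (-0.34), Cd14 (-0.17), RT1-Ba (-0.16), Fcgr2b (-0.11) and Cd4 (-0.09) lay below 0, and another RT1-Ba probe set was called lower. In walked relative to control muscle Cd48 (0.92), Cd4 (0.43) and Cd14 (0.21) lay above 0, uncalled. Ptprc (-0.85), RT1-Ba (-0.44), Fcgr2b (-0.16) and Lyz2 (-0.05) lay below 0 there, uncalled. Relative to unloaded, Cd4 (0.51) and Cd14 (0.38) lay above 0, uncalled, and the other markers below 0. The antigen presentation gene RT1-Da fell in walked muscle, by 0.85 ± 0.15 relative to unloaded and by 0.58 ± 0.15 relative to control. Its other probe set gave -0.21 and -0.24, not called. Cd74, of the same pathway, fell by 0.65 ± 0.16 relative to control, with 1 of its 4 probe sets called. These 3 calls in walked muscle were lost without either walked pool (adjusted p of 0.0568 to 0.176, limma), the RT1-Da and Cd74 calls relative to control also without control pool 2 or 3, and that of Cd74 without control pool 1.

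Endothelial markers (5 of 10 measured) summed to 320 to 351 in walked, 315 to 344 in unloaded and 326 to 412 in control pools, and limma called 0 of 4 in any comparison (0 unadjusted). Smooth muscle and pericyte markers (6 of 8 measured) summed to 4660 to 5793 in walked, 3814 to 5009 in unloaded and 4127 to 4895 in control pools, and Tagln fell in unloaded against control (-0.96 ± 0.22), a call lost without control pool 3 (adjusted p = 0.0655) or unloaded pool 2 (0.0816, limma). Schwann cell and nerve markers (6 of 9 measured) summed to 1287 to 1400 in walked, 1180 to 1205 in unloaded and 1482 to 1678 in control pools, with no overlap between any groups. The brightest Ngfr probe set, which is part of these sums, had means of 695 in walked, 557 in unloaded and 856 in control pools. Of 5 tested, Ngfr fell in unloaded against control (-0.61 ± 0.13, adjusted p = 0.0178, limma), a call lost without unloaded pool 1 or 2. Its other probe set gave 0.43 and was not called. In that comparison Prx (0.66) lay above 0, uncalled. Pmp22 (-0.35), Mbp (-0.23) and Mag (-0.06) lay below 0 on their brightest probe sets, uncalled. Prx fell in walked against unloaded (-1.23 ± 0.30, adjusted p = 0.0421, limma). The brightest probe sets of Pmp22 (0.23), Mbp (0.41), Mag (0.07) and Ngfr (0.32) lay above 0 there, uncalled. The second probe sets of Pmp22 (-0.43), Mag (-0.15) and Ngfr (-0.32) lay below 0. The Prx call was lost without walked pool 1 (0.277), unloaded pool 1 or 2, or control pool 1 or 2. Soleus fibre markers summed to 34626 to 39934 in walked, 26672 to 37652 in unloaded and 24022 to 26619 in control pools. Of the 8 fibre markers 5 were called higher in walked against control muscle, in which 3.74% of all genes were called higher. Among the 5 were Acta1 (1.07 ± 0.24), Ckm (0.93 ± 0.24) and Tnni1 (0.58 ± 0.15). The Acta1 call was lost without walked pool 2, and without control pool 2 (adjusted p = 0.0536, limma). Over 17 alternatives of processing or left-out arrays, the calls of Acta1, Ckm and Tnni1 were lost in 4, 8 and 9. All walked and unloaded sums lay above all control sums. Tpm3 went the other way on its brightest probe set. It fell in unloaded against control (-0.95 ± 0.17, adjusted p = 0.00594, limma) and was -0.47 ± 0.19 in walked relative to control (adjusted p = 0.144). Its other probe sets gave -1.48 to -0.14 and -1.71 to -0.26 in these comparisons. In each, 1 of the 4 was called, in the second not the brightest.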

How the data were processed

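The authors made the deposited signal intensities with MAS5, per the submitters' processing notes, with version and scaling target not given in the sources used here. They stand on a linear scale with 1 intensity for each probe set and array. Here, arrays were brought to a common 2% trimmed mean (148.6; as deposited 148.4 to 148.8), intensities under the 10th percentile (4.10) were raised to it, and probe sets whose mean signal was under the 40th percentile (25.8) were dropped. Log2 values were fitted with limma 3.58.1 (R 4.3.3) as 3 groups, with a trended prior and two-sided tests (5 residual and 6.00 prior degrees of freedom), and the fit was tested on simulated data. Signals in the text are as deposited. An exact permutation of 3 pools and 3 others cannot go below p = 0.1, so calls rest on spread pooled across probe sets, and the number of arrays limits the precision.

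Symbols came from the platform annotation (7006 probe sets with 1 symbol, 308 with several, 1426 unnamed here), and 6985 of the 7006 matched the GRCr8 gene table. The members, the 16 gene lists and the tests were chosen with earlier results of these data known. Named genes are all members, up to 3 called genes for each list and comparison by smallest p, and the 5 nearest in pattern to each member (for Dcn and Lum, among genes that vary at least 0.5 times as much). The uncalled Col3a1, Col1a2 values, the uncalled small proteoglycans and Btg1 were named after their values were seen. So were Sdc4 in unloaded against control and the cell type markers not called on their brightest probe set. Alternatives were quantile normalization, no rescaling, other floors, other filters, no trend, 2 groups only, pool number as a block, each array left out, and the mean over a gene's probe sets.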

Additional observations from a re-analysis of the deposited data

How the results depend on the processing

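Over 17 alternatives and 27 values (9 probe sets in 3 comparisons), 444 of 459 refits stayed on the same side of the threshold and 15 lost a call. The direction of a called value was the same in every refit. The uncalled value of Dcn rc_AI639233_s_at in walked against control changed sign without walked pool 2 (-0.24). With no filter, 3 members were called in unloaded against control and 0 in walked against unloaded, where 228 and, in walked against control, 216 of all probe sets were called. Without a mean-variance trend, 3 members were called in unloaded against control, and 243 and 211 probe sets in all in the comparisons with control. Leaving out 1 array gave 3 to 5 members and 230 to 404 probe sets in unloaded against control, 0 to 1 and 120 to 263 in walked against unloaded, and 2 members and 105 to 503 probe sets in walked against control. The main counts were 383, 220 and 476. The pool numbers share only a number: deviations of same-numbered pools correlated at -0.07 to 0.05, against -0.07 to 0.11 for other pairs. With the pool number as a block, walked against control had 251 calls and the members kept all their calls. The cause of these losses was not tested. Where 1 array is left out, the smaller number of arrays and the array removed cannot be told apart. The depth of signal limits Papss2, whose walked signal was dim.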
